A study of Mus musculus with 14 samples.

Results

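Skeletal muscle genes were followed in brown adipose tissue (brown fat) of adult mice and of mouse embryos, with cultured fat cells as a reference that holds no tissue. The 10 genes were chosen by name: 6 sarcomeric myosin heavy chains (Myh1, Myh2, Myh3, Myh4, Myh7 and Myh8), Acta1, Ckm, Mb and Pvalb. All 10 were found among the 22835 gene symbols of the deposited tables, and 1 transcript was kept per symbol, the one with the highest mean RPKM over the 14 libraries. RPKM is the number of reads on a transcript, divided by its length and by the size of the library. The study is titled for the roles of KLF4, Krox20 and PPARγ in adipogenesis, and it sequenced messenger RNA from 2 tissue samples and 12 cultures.

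The groups were adult brown fat, embryo brown fat, and 2 lines of cultured cells, each sampled at 6 times: 0h, 1h, 2h and 4h, then on day 2 (D2) and day 7 (D7) of adipogenesis. The labels give the strain of every sample as C57BL/6J. One line was 3T3-L1, white preadipocytes that grow without limit. The other, called the brown line here, was made from brown preadipocytes of newborn pups, taken between the shoulder blades and immortalized by SV40T; it is PPARg-flox/flox, and the labels name no Cre recombinase. Both lines are labelled as induced with insulin, T3, IBMX, dexamethasone and indomethacin. The sources used here give neither the age of the embryos and adults, nor the number of animals in a sample, nor the depot dissected. Each group held 1 library, so no difference between the tissues has a replicate check and none was tested. The deposited counts of all transcripts summed to 4.02 M reads (M, mega) in adult and 17.5 M in embryo brown fat. The library sizes implied by the RPKM were 5.35 M in adult and 18.8 M in embryo. By RPKM the culture libraries held 39.5 to 81.1 M reads. Intervals below are exact 95% Poisson or binomial intervals, which cover counting error only, and reads without molecular identifiers are not independent molecules.

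Both tissue libraries carried markers of brown fat. Ucp1, the uncoupling protein of brown adipocytes, stood at 1015 RPKM in adult and 1194 RPKM in embryo, against at most 1.07 RPKM in the 12 cultures. Cidea, a lipid droplet protein, stood at 1164 and 1676 RPKM. The other markers on the same list were less alike. Elovl3 (42.4 against 3.35 RPKM) and Dio2 (17.9 against 7.04 RPKM) were higher in adult. Adipoq, Pparg and Plin1 were higher in 3T3-L1 at day 7 (4622, 244 and 471 RPKM) than in either tissue. Fabp4 stood at 5960 RPKM in adult and 10168 RPKM in embryo, against at most 4006 RPKM in the cultures.

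Muscle fibres contract when myosin heads walk along actin filaments, and each fibre type uses its own myosin heavy chain. Myh3 (embryonic) and Myh8 (perinatal) are the developmental isoforms, used before and around birth. Myh2 (type IIA), Myh1 (type IIX) and Myh4 (type IIB) are the fast isoforms of mature muscle, in order of rising speed, and Myh7 is the isoform of slow fibres and of heart. Brown adipocytes and skeletal muscle share an origin in precursors that have expressed Myf5, and interscapular brown fat lies directly on back muscle.

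Of the 6 myosin genes, 5 lie in 1 cluster on chromosome 11 in the order Myh3, Myh2, Myh1, Myh4 and Myh8, and Myh7 lies on chromosome 14. The 250 bases upstream of the starts of the 2 developmental genes and of 2 mature fast genes of this cluster are shown because the 2 pairs were at opposite levels in the 2 tissues. They come from RefSeq on build GRCm38.p6, 5′ to 3′. Capitals mark matches, on either strand, to TATAAA and to the consensus site of MEF2, a muscle transcription factor; the 2 kinds of match overlap in part.
Myh3, chr11:67078050-67078299 (+ strand): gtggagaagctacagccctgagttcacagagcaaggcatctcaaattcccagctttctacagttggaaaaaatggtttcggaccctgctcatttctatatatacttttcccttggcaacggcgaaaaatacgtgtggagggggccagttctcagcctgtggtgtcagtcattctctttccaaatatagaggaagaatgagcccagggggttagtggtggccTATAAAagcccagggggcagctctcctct
Myh8, chr11:67276874-67277123 (+ strand): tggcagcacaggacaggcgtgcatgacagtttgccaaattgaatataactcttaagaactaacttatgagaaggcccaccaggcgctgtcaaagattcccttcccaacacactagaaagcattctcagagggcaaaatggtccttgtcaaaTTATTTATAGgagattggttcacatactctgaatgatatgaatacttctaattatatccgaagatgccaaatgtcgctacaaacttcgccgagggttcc
Myh1, chr11:67199852-67200101 (+ strand): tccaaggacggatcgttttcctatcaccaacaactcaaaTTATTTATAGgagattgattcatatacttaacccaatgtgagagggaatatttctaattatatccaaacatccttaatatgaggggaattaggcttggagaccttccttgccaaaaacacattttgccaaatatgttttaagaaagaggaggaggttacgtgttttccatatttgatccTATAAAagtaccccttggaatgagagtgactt
Myh4, chr11:67237562-67237811 (+ strand): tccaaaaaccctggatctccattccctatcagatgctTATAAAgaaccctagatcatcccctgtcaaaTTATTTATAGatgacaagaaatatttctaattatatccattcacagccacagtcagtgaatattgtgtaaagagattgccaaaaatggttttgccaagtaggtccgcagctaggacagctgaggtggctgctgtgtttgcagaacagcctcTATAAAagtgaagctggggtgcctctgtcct

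The same 10 letters, TTATTTATAG, matched the MEF2 site upstream of Myh8, Myh1 and Myh4, beginning 99, 211 and 182 bases before the start. No match lay in the window of Myh3. TATAAA began 29, 32 and 31 bases before the start in Myh3, Myh1 and Myh4, and the match in Myh8 was the one inside its MEF2 site. Among the windows of all 10 genes, 4 held a MEF2 site and 5 held TATAAA, against 3.01% and 13.0% of 27025 promoters of the same length. These are matches of letters and not measured sites.

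All 10 genes were read in both tissues, and the myosin isoforms differed between the 2 libraries. The adult library held the mature myosins. The embryo library held mainly Myh8 and Myh3, with the mature Myh7 at 4.14 RPKM. A gene was called where its RPKM differed at least 2-fold and reached 2 in the tissue that had more. By that rule 8 of the 10 genes were higher in adult, where 7.18% of 10815 genes were, and 2 were higher in embryo, where 33.2% were. The 8 were the mature myosins, Acta1, Ckm, Mb and Pvalb, and the 2 were Myh3 and Myh8. The median log2 ratio of adult over embryo was -0.63 over all these genes. With libraries scaled by the median of ratios, whose log2 ratio of adult over embryo was -0.54, 13.4% of genes were higher in adult and 15.6% in embryo, and the members again split into 8 and 2.

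**Figure D1:**
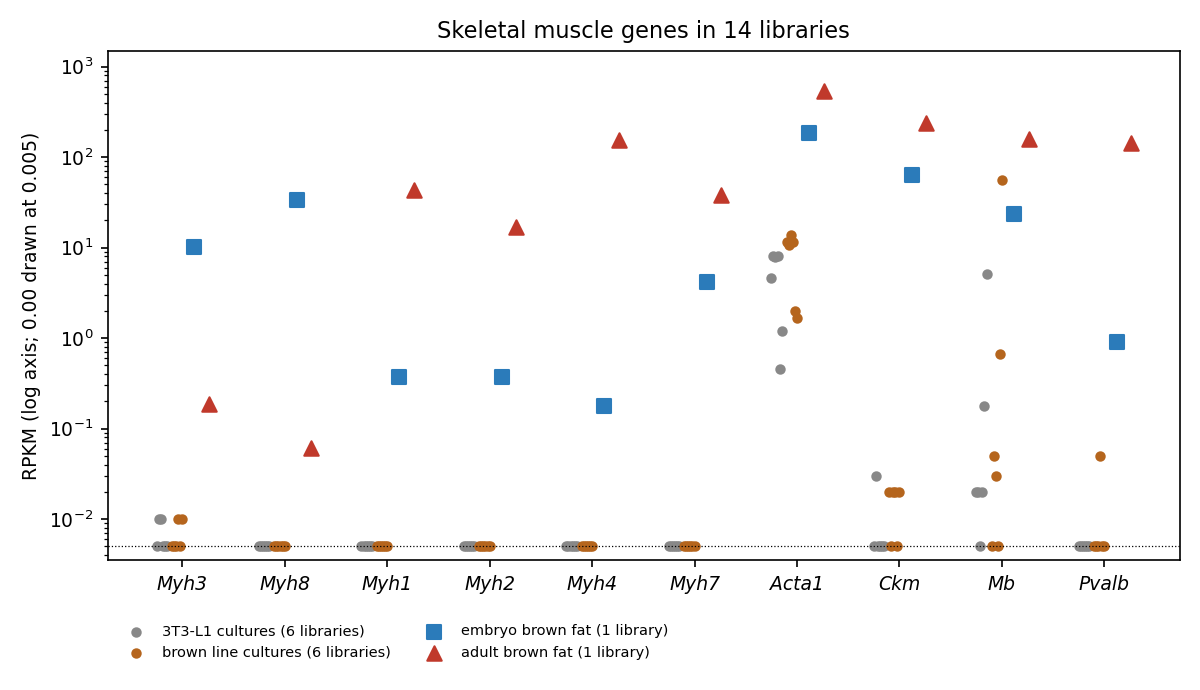
RPKM on a log axis of the 10 genes in 14 libraries; circles are single cultures, squares embryo and triangles adult brown fat, and values listed as 0.00 are drawn at the dotted line at 0.005. Adult lies above embryo for 8 genes and below it for Myh3 and Myh8, and only Acta1 and Mb exceed 0.05 RPKM in any culture.

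Among the developmental myosins, Myh8 had 3859 reads in embryo and 2 in adult, or 33.4 against 0.0608 RPKM. Myh3 had 1130 reads in embryo and 6 in adult, or 10.0 against 0.187 RPKM. Embryo was above adult by 549.9-fold for Myh8 (interval 152 to 4542) and by 53.7-fold for Myh3 (24.6 to 147). The upper limits are wide because the adult library held only these few reads. Within embryo brown fat Myh8 made up 76.9% of the RPKM of the developmental pair and Myh3 the rest.

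Myh4, the fastest isoform, had 5003 reads in adult and 20 in embryo, or 155 against 0.177 RPKM, a ratio of 878 (interval 568 to 1438). Myh1 had 1406 and 42 reads, or 43.7 against 0.372 RPKM, a ratio of 117 (86.4 to 164). Myh2 had 555 and 43 reads, or 17.1 against 0.377 RPKM, a ratio of 45.3 (33.2 to 63.3). The 3 ratios ranked Myh4 above Myh1 above Myh2, and their intervals, which do not cover reads that match several of these genes, did not overlap. The slow isoform Myh7 had 1240 reads in adult and 470 in embryo, or 38.3 against 4.14 RPKM, and its ratio of 9.26 (8.32 to 10.3) was below those of the 3 fast isoforms.

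Summed over the 6 genes, myosin heavy chain RNA stood at 255 RPKM in adult and 48.6 RPKM in embryo, a ratio of 5.25 (interval 5.005 to 5.36). The 4 mature isoforms were 50.3-fold higher in adult (46.0 to 54.6) and the developmental pair 175-fold higher in embryo (90.1 to 412). Shares within this sum do not depend on how much muscle RNA a library holds. The developmental pair made up 0.0974% of the summed RPKM in adult and 89.6% in embryo; as shares of the reads, with exact binomial intervals, 8 of 8212 (0.0421% to 0.192%) and 4989 of 5564 (88.8% to 90.5%). In adult Myh4 led with 61.0%, followed by Myh1 with 17.1%, Myh7 with 15.0% and Myh2 with 6.70%. In embryo Myh8 led with 68.9%, followed by Myh3 with 20.7% and Myh7 with 8.52%, and the 3 fast isoforms together made up 1.91%.

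**Figure D2:**
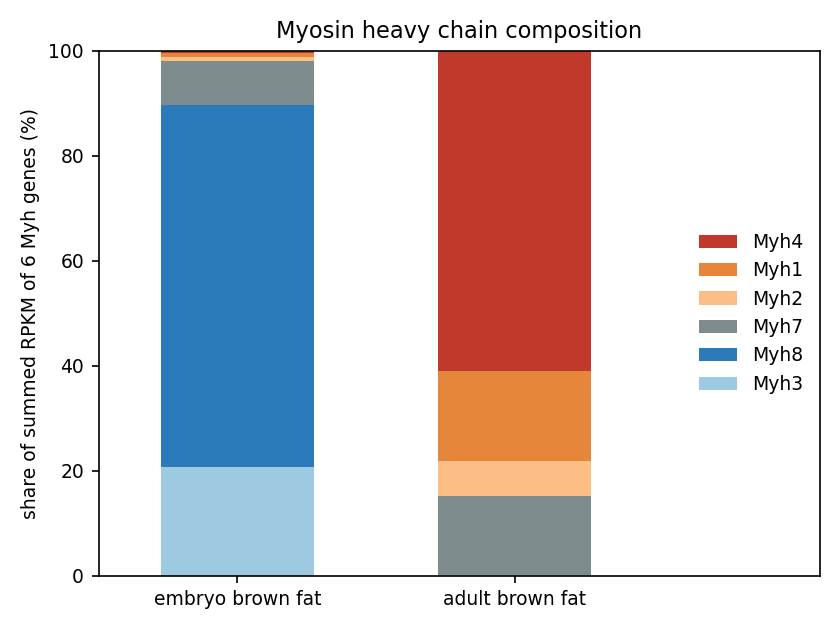
Share of the summed RPKM of 6 myosin heavy chain genes in 1 library of each tissue. Myh8 and Myh3 fill 89.6% of the embryo bar, and Myh4, Myh1, Myh7 and Myh2 fill the adult bar, where the developmental pair at 0.0974% is too thin to see.

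Among the mature isoforms alone, the slow one was the larger part in embryo and the smaller in adult. Myh7 made up 81.7% of the mature RPKM in embryo (binomial interval of the reads 78.3% to 84.8%) and 15.0% in adult (14.3% to 15.9%). Myh4 made up 3.50% in embryo (2.14% to 5.32%) and 61.1% in adult (59.9% to 62.0%). Neither pair of intervals overlapped.

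The myosin genes resemble each other, and how reads that match several copies were counted is not given in the sources used here. Of the 50-base stretches of the Myh8 transcript, 11.8% also occur in Myh2, 9.56% in Myh1 and 9.31% in Myh4, by the GENCODE transcripts of GRCm38. In embryo, where Myh8 had 3859 reads, those 3 genes had 43, 42 and 20. Conversely 9.52% of the Myh4 stretches occur in Myh8, which had 2 reads in adult beside the 5003 of Myh4. Myh1 and Myh2 share most, 20.1% of the Myh1 stretches occurring in Myh2 and 19.7% of the Myh2 stretches in Myh1. How far this blurs their separate ratios is not known. Few embryo reads lay under Myh1, Myh2 and Myh4, so a small part of the Myh8 reads listed there would change their ratios. The part of such reads was not tested. The share with any other gene was 27.4% for Myh1, 26.9% for Myh2, 4.81% for Myh3, and 22.6% for Myh7, all of it with the cardiac Myh6, which had 3 reads in adult and 8 in embryo. Annotated antisense transcripts overlap exons of Myh1 (Myhas), Myh2 (9430073C21Rik), Myh7 (Mhrt, Gm29015 and Gm31251), Ckm (A930016O22Rik) and Mb (Apol6 and Gm49540), and reads of the 2 strands cannot be told apart because the use of strand is not given.

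The other 4 genes were all higher in adult, by ratios that ranged from 2.92 to 158. Acta1, skeletal muscle α-actin and the filament on which these myosins pull, was the most abundant of the 10 in both tissues, with 4090 reads or 534 RPKM in adult and 4915 reads or 183 RPKM in embryo, a ratio of 2.92 (2.80 to 3.04). Ckm, the muscle creatine kinase that regenerates ATP from phosphocreatine, had 1796 and 1708 reads, or 237 against 64.3 RPKM, a ratio of 3.69 (3.45 to 3.94). These were the 2 smallest fold differences of the 10 in either direction, and the 2 that did not reach 4-fold.

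Pvalb, the calcium buffer that speeds relaxation of fast fibres, had 677 reads in adult and 15 in embryo, or 142 against 0.896 RPKM, a ratio of 158 (95.3 to 285). Its ratio lay between those of Myh4 and Myh1, genes of the fastest fibres, and its interval overlapped that of Myh1. Mb, the oxygen store myoglobin, had 815 and 427 reads, or 157 against 23.5 RPKM, a ratio of 6.70 (5.95 to 7.55).

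**Figure D3:**
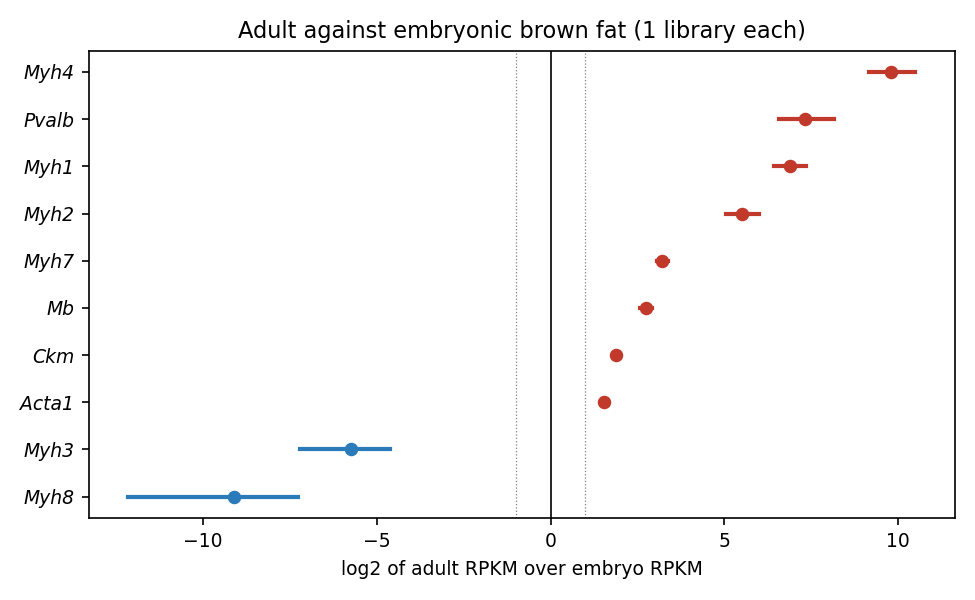
Log2 of adult over embryo RPKM for the 10 genes (points) with exact 95% Poisson intervals (lines; counting error only); dotted lines mark 2-fold. Myh4 stands at 9.78 and Myh8 at -9.10, and no interval crosses 0.

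In level per length, adult brown fat ordered the genes as Acta1, Ckm, Mb, Myh4, Pvalb, Myh1, Myh7, Myh2, Myh3 and Myh8. The counting intervals of the RPKM overlapped for Mb (147 to 169), Myh4 (151 to 160) and Pvalb (131 to 153), and for Myh3 and Myh8, so these neighbours were not separated even by counting error. Embryo brown fat ordered them as Acta1, Ckm, Myh8, Mb, Myh3, Myh7, Pvalb, Myh2, Myh1 and Myh4. There the intervals of Myh2 (0.273 to 0.507) and Myh1 (0.268 to 0.503) overlapped, and the ends of those of Pvalb and Myh2 and of Myh1 and Myh4 did too. Acta1 and Ckm held ranks 1 and 2 in both, while Myh4 went from rank 4 in adult to rank 10 in embryo and Myh8 from rank 10 to rank 3.

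Set against the summed myosin RPKM of the same library, Ckm, Mb and Acta1 differed less between the tissues than Pvalb did. Ckm stood at 0.931 times the summed myosin RPKM in adult and 1.32 times in embryo, Mb at 0.618 and 0.484 times, and Acta1 at 2.09 and 3.76 times. Pvalb stood at 0.557 times in adult and 0.0185 times in embryo. Per unit of myosin RNA, Acta1 and Ckm were thus the higher in embryo, although both were the lower per library.

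The cultures set the reference. Where a tissue RPKM of at least 2 stood at least 2-fold over the highest culture, the gene was counted as above all cultures. Of the 10 genes, 8 reached 2 RPKM in adult and 6 in embryo. By that rule 8 of the 8 were above the cultures in adult, where 8.58% of 9113 genes at 2 RPKM or more were. In embryo 5 of the 6 were, where 10.6% of 10275 such genes were. The 5 in embryo were Myh3, Myh8, Myh7, Acta1 and Ckm, and Mb did not pass. Myh1, Myh2, Myh4, Myh7 and Myh8 were listed at 0.00 RPKM in all 12 cultures. Because the culture files are rounded to 2 decimals, 0.00 stands for less than 0.005 RPKM, which for Myh4 is 1.19 to 2.44 reads depending on the library. Myh3 reached at most 0.01 RPKM, Ckm 0.03 and Pvalb 0.05.

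Mb and Acta1 were the 2 genes with a level in culture that could be tested, with limma on log2(RPKM + 1) and the 2 lines as replicates at each time (n = 2). Mb stood at 0.02 RPKM at 0h, 0.18 at day 2 and 5.08 at day 7 in 3T3-L1, and at 0.00, 0.66 and 55.3 RPKM in the brown line. Both lines were low until day 2 and highest at day 7. Mb rose by 4.19 ± 0.75 (log2 ± SE, adjusted p = 0.00411) at day 7 and did not pass at day 2, with 0.47 ± 0.75 (limma adjusted p = 0.697), where 6.18% of genes rose. At day 7, 14.9% of 12427 genes rose and 25.8% fell, with a median log2 difference of -0.19. Without the brown day 7 library the rise of Mb was 2.64, and without 3T3-L1 day 7 it was 5.75. Either fit leaves 1 library at day 7, so only the size of the rise is given. The size of the rise in the 2 lines was not tested against each other. At day 7 the brown line stood above embryo brown fat, which had 23.5 RPKM, by 2.35-fold, and below adult brown fat, which was 2.85-fold above it.

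Acta1 took the opposite course in culture. From 0h to 4h it stood at 4.66 to 8.16 RPKM in 3T3-L1 and at 10.8 to 13.8 RPKM in the brown line. On day 2 its RPKM was 0.46 in 3T3-L1 and 1.98 in the brown line, and on day 7 these were 1.20 and 1.67, below every early value of the same line. In limma the log2 difference of Acta1 from 0h was -2.02 ± 0.24 at day 2 (adjusted p = 0.00239), where 11.5% of genes fell, and -1.804 ± 0.24 at day 7 (adjusted p = 0.00122). Neither gene passed at an earlier time; for Acta1 the limma adjusted p was 1.00 at 1h, 0.397 at 2h and 0.454 at 4h. Few genes did: 0.0402% rose and 0 fell at 1h, 0.507% rose and 0.909% fell at 2h, and 0.933% rose and 1.46% fell at 4h. In both lines the column headers of the late files (day 2 and day 7) are styled unlike those of the early ones, and per the labels the 2 late libraries of the brown line duplicate samples deposited in a further series. A batch of late libraries and time therefore cannot be told apart. Adult brown fat held 38.8-fold and embryo brown fat 13.3-fold the highest culture value of Acta1.

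**Figure D4:**
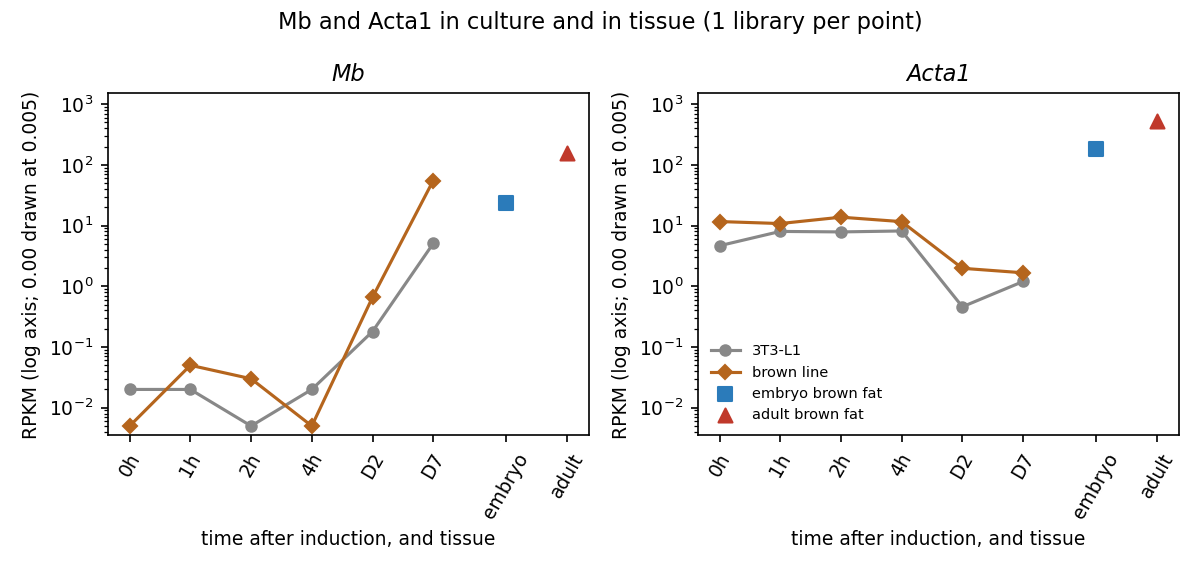
RPKM on a log axis of Mb and Acta1 at 6 times of adipogenesis in 3T3-L1 (grey circles) and the brown line (brown diamonds), with embryo (square) and adult (triangle) brown fat; each point is 1 library, and 0.00 is drawn at 0.005. Mb reaches 55.3 RPKM in the brown line at day 7, above embryo brown fat at 23.5, while Acta1 is lower at day 2 and day 7 than at 0h in both lines and far below both tissues.

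Other genes of the muscle fibre were taken from 9 lists with 84 genes, of which 67 reached 2 RPKM in a tissue. Of these, 49 were higher in adult, 8 higher in embryo and 10 neither. Their median log2 ratio was 1.98 against -0.63 over all genes. Over all genes tested, 7.18% were higher in adult and 33.2% in embryo, the shares to set beside each list below. After median of ratios scaling 54 were higher in adult and 6 in embryo, of 69, where 13.4% and 15.6% of all genes were. All lists were read with the same 2 libraries as the 10 genes and are a description.

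The scaffold of the sarcomere, with Ttn and Neb as its molecular rulers, had 17 of 19 genes higher in adult (median log2 ratio 2.21). Xirp2, an actin-binding protein of the intercalated disc and myotendinous junction, stood at 13.5 against 0.370 RPKM, Tcap, which caps titin at the Z-disc, at 79.9 against 5.002 RPKM, Nrap at 13.3 against 0.919 RPKM, and the giant protein Ttn at 11.4 against 0.970 RPKM. Slow fibre contractile genes had 6 of 6 higher in adult (median 2.18), among them the light chains Myl3, 29.1 against 2.73 RPKM, and Myl2, 62.3 against 7.91 RPKM, and the troponins Tnni1, 22.9 against 4.82 RPKM, and Tnnc1, 36.7 against 8.49 RPKM.

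Fast fibre contractile genes moved less evenly, with 4 of 7 higher in adult (median 1.40). Mybpc2, a fast myosin-binding protein, stood at 11.1 against 0.809 RPKM and Actn3, the α-actinin of fast fibres, at 23.2 against 1.70 RPKM. The troponins Tnnt3 and Tnni2 stood at 197 against 41.4 RPKM and at 173 against 65.3 RPKM. The 3 that did not pass, named after their values were seen, were the light chains Mylpf, 84.7 against 102 RPKM, and Myl1, 63.4 against 51.3 RPKM, and the troponin Tnnc2, 124 against 71.3 RPKM. In embryo these 3 stood at 51.3 RPKM or more, while the fast heavy chains Myh1, Myh2 and Myh4 each stood at 0.377 RPKM or less.

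Genes that developing skeletal muscle shares with heart were mostly higher in embryo, 3 of the 4 that reached 2 RPKM, where 33.2% of all genes were. Actc1, cardiac α-actin, which fetal skeletal muscle also uses, had 1220 reads in embryo and 8 in adult, or 46.8 against 1.08 RPKM. Myl4, the embryonic and atrial light chain, stood at 8.69 against 1.48 RPKM and Tnnt2 at 2.35 against 0.169 RPKM; the latter had 1 read in adult and reached 8.47 RPKM in 3T3-L1 at 4h. Mybph was the exception, 9.91 RPKM in adult against 3.12 in embryo. Like Myh3 and Myh8, Actc1 was higher in embryo, but Acta1, at 183 RPKM, was the more abundant of the 2 actins there too. Of the heart markers, Myl7 had 0 reads in both tissues, Nppa 0 in adult and 1 in embryo, Tnni3 1 and 2, and Ryr2 3 and 18. The list's other members were Myh6, with 3 and 8 reads, and Myl4 and Tnnt2, with 144 and 49 reads in embryo, which developing skeletal muscle also uses. The part of heart muscle in the levels of Myh7 and Actc1 was not tested.

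Excitation and calcium handling genes had 11 of 13 higher in adult (median 2.097). Ryr1, the calcium release channel, stood at 10.4 against 0.513 RPKM, Atp2a1, the calcium pump of fast fibres, at 205 against 12.5 RPKM, Scn4a, the muscle sodium channel, at 3.63 against 0.234 RPKM, and Cacna1s, the voltage sensor, at 8.19 against 0.620 RPKM. The 2 higher in embryo, named after their values were seen, were Sln (sarcolipin, which uncouples the calcium pump), 32.3 against 5.39 RPKM, and Casq2, the cardiac and slow fibre calsequestrin, 8.10 against 2.58 RPKM. Muscle energy genes had 8 of 9 higher in adult (median 1.72), with Phkg1 at 4.59 against 0.384 RPKM, Pygm, muscle glycogen phosphorylase, at 40.8 against 5.45 RPKM, Ckmt2, the mitochondrial creatine kinase, at 18.5 against 2.98 RPKM, and Ampd1 at 7.34 against 1.82 RPKM.

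**Figure D5:**
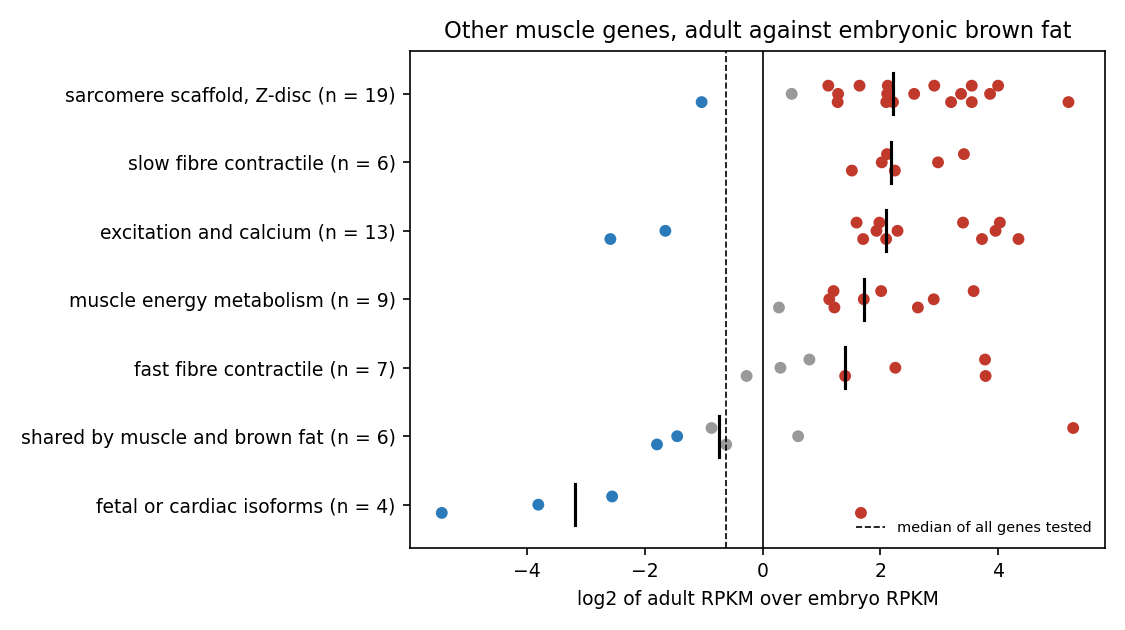
Log2 of adult over embryo RPKM for genes of 7 muscle lists with an RPKM of at least 2 in a tissue; each point is 1 gene, red and blue mark 2-fold higher in adult and in embryo, black bars are list medians and the dashed line is the median of all genes at -0.63. Slow fibre genes lie to the right of 0, as do most scaffold genes, and 3 of 4 fetal or cardiac isoforms lie to the left.

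Genes that muscle and brown adipocytes both use had 1 of 6 higher in adult and 2 in embryo (median -0.74), the latter near the 33.2% of all genes, and the median of ratios turned these counts into 2 and 1. Fabp3, the heart-type fatty acid carrier, stood at 93.2 against 2.41 RPKM. The respiratory chain subunits Cox8b and Cox7a1 were higher in embryo, 956 against 2607 RPKM and 299.8 against 1037 RPKM, and Cpt1b, which admits fatty acids to mitochondria, stood at 172 against 314 RPKM with no call. Mb, too, was read in fat cells as well as in the tissues, at 55.3 RPKM in the brown line at day 7.

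Regulators of muscle formation were scarce in both tissues. Of 10, 2 reached 2 RPKM, and 0 were called, or 1 under the median of ratios. Mef2c, a partner of the myogenic factors, stood at 8.55 against 7.81 RPKM. Myog, which drives the formation of fibres, had 5 reads in adult and 36 in embryo, and Tmem8c, the fusion protein myomaker, 0 and 26. Myod1 had 3 and 13 reads and Pax7, the marker of muscle stem cells, 0 and 3; these 2 genes were named after their values were seen. Of 6 genes of the contact between nerve and muscle, acetylcholine receptor subunits and Musk, 1 reached 2 RPKM in a tissue. It was Chrnb1 at 2.09 against 0.992 RPKM, which stood higher, at 4.36 RPKM, in the brown line at 0h. Chrng, the fetal subunit, had 0 reads in adult and 29 in embryo, and Chrna1 and Chrnd had 8 and 0 reads in adult and 12 and 15 in embryo.

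Some other cell types differed between the tissues along with the muscle genes, and in bulk tissue fewer cells of a type and less RNA per cell cannot be told apart. Brown adipocyte markers had 2 of 8 higher in adult and 0 in embryo (summed level 9080 and 14332 RPKM, against 29.4 to 9347 RPKM in the cultures). All 5 erythroid markers (summed level 238 and 3142 RPKM), all 4 proliferation markers (0.514 and 37.8 RPKM) and 4 of 5 fibroblast markers (93.8 and 598 RPKM) were higher in embryo. The erythroid markers Hba-a1 and Hba-a2 each had 263 reads in adult and 9156 in embryo. With equal counts in both libraries they are not separate readings, and the erythroid sum holds both. The counts of other types were close to the 33.2% of all genes or rested on few genes. Endothelial markers had 1 of 4 higher in embryo (125 and 240 RPKM) and macrophage markers 1 of the 3 that reached 2 RPKM (25.6 and 35.7 RPKM). Smooth muscle markers had 2 of 4 higher in embryo (28.4 and 49.8 RPKM) and heart markers 2 of the 2 that reached 2 RPKM, Myl4 and Tnnt2 (all 7 summed, 2.00 and 11.4 RPKM). Under the median of ratios the endothelial and macrophage counts were 0, that of smooth muscle 1 and that of fibroblasts 3. The 10 muscle genes took 0.388% of the summed transcript counts in adult and 0.0722% in embryo. The part of these cell types, and of the amount of muscle in each dissection, in the differences of the muscle genes was not tested.

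The genes most like Myh4 and Myh3 over the 14 libraries were found by Pearson correlation of log2(RPKM + 1) among 7857 genes with at least 5 RPKM in a tissue. Most like Myh4 were Scn4b, Slc25a48, 2310014F07Rik, Xirp2, Slc2a5 and Txlnb (r from 0.992 to 1.00), with 5.35 to 16.7 RPKM in adult and at most 0.394 RPKM in embryo. Most like Myh3 were Mcpt4, Tpsb2, Slc6a13, Fam167b, Tceal7 and Stfa1 (r from 0.998 to 1.00), with 5.08 to 41.7 RPKM in embryo and at most 0.198 RPKM in adult. Mcpt4 and Tpsb2 are proteases of mast cells. Each of these correlations rests on 1 tissue library standing apart from the others, whose values are near 0 and whose depths differ.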

How the data were processed

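Per the labels' protocols, total RNA was taken up in Trizol and messenger RNA was purified on Dynabeads before standard Illumina library preparation. The tissue files hold read counts and RPKM of 29082 RefSeq transcripts and the culture files hold RPKM rounded to 2 decimals, both as the authors deposited them, per the file headers. The submitters' processing notes name CASAVA 1.8.2 and build mm9 without a role; the sources used here name no aligner or counting program and do not say how strand or reads with several matches were treated. The GRCm38 tables gave names, gene order, promoters and shared stretches only.

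One transcript was kept for each of 3906 symbols with several. The 3 Mb transcripts had 815 to 846 reads each in adult, reads on shared exons being listed under each. Tissue ratios are of the deposited RPKM, with 0 reads set to a floor of 3. Culture depth was recovered from low RPKM values, which step by 1 read: of the 47 to 100 values used in a library, 100% lay within 0.2 of whole. limma 3.58.1 (R 4.3.3, eBayes with trend) was fitted on log2(RPKM + 1) of 12427 genes with RPKM of at least 1 in at least 2 cultures, with time and line as terms and Benjamini-Hochberg adjustment within each time at 0.05. This test was added after the files were seen. Its p-values rest on how far the 2 lines depart from a common time course, pooled over all times. The constant difference between the lines is removed by the line term, and the lines are not replicate cultures. Ratios and limma were also run on simulated data, as a check of the code only. The simulated lines differed by noise alone, so that run does not bear on the calls of Mb and Acta1. Python 3.11.15, pandas 2.3.3 and scipy 1.17.1 were used.

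The members and lists were chosen with earlier results of these data known. All 10 members are named; from each list up to 4 genes are named, those with the largest log2 ratio at 2 RPKM or more, or else the highest RPKM, and the text says where others are added. Some items are not reported here.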

Additional observations from a re-analysis of the deposited data

How the results depend on the processing

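The 8 members higher in adult and 2 higher in embryo were counted again with another filter (at least 10 RPKM, or none), a floor of 1 read, summed transcripts, the median of ratios, and library sizes without the 100 most abundant genes; the counts were 8 and 2 each time. Over all genes, 6.01% to 21.4% were higher in adult and 15.6% to 37.1% in embryo under these settings. At 4-fold the counts of members were 6 and 2, where 3.55% and 8.60% of all genes were called. At 10-fold over the cultures 7 members in adult and 5 in embryo remained above, in place of 8 and 5. The share of all genes at that 10-fold was not counted. The developmental share in embryo was 97.9% without Myh7, in place of 89.6%, since Myh7 then leaves the sum; in adult it was 0.115%, in place of 0.0974%. No member's log2 ratio changed sign. It left its counting interval for 6 of 10 members under the median of ratios and for 4 of 10 without the most abundant genes, each time by a shift common to all genes.

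The culture settings were chosen after seeing the data. With each culture left out in turn, the day 7 rise of Mb was 2.64 to 5.75 and its day 2 difference 0.08 to 0.86. Acta1 at day 2 stood at -2.31 to -1.73 and at day 7 at -2.10 to -1.51. With a pseudocount of 0.1 Mb rose by 7.27 at day 7 and its day 2 difference was 2.07, still short of the threshold. Acta1 stood at -2.79 and -2.30 with that pseudocount. With no filter Mb at day 7 was 4.19. The limma calls of Mb at day 7 and Acta1 at both times held with that pseudocount and with no filter. Fits with a culture left out are given by size only. Where a time is left with 1 library, that library is assumed to vary like the others. No paired analysis was possible because the labels give no replicate numbers to pair and the tissues have 1 library each; in the cultures, line was a term of the limma fit throughout. The adult library is the shallowest, so members at 2 and 6 reads there have wide intervals.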
